A study of Caenorhabditis elegans with 24 samples.

Results

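The 6 heterochronic protein genes lin-14, lin-28, lin-29, lin-41, lin-42 and hbl-1 were taken by name from DamID tables of 46374 Caenorhabditis elegans genes, together with the 43 bins of 2 kb that lie over them out of 50139 bins. All 6 genes had values in every table. In DamID a fusion of the bacterial methyltransferase Dam marks GATC sites near the places a protein touches, and GFP::Dam, which has no binding site of its own, shows how open each place is. The protein was BAF-1, a small factor of the nuclear envelope that bridges DNA to lamina proteins, or its mutant BAF-1(G12T), which carries the counterpart of a human progeria mutation.

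There were 24 libraries in 8 groups of 3 replicates. Dam::BAF-1 and a GFP::Dam control were expressed in wild-type animals, and Dam::BAF-1(G12T) and its own GFP::Dam control in baf-1(G12T) mutants, each in hypodermis and in intestine, so that a difference between the proteins is also one between genotypes and no control is shared. Expression came from single-copy transgenes under an uninduced hsp16.41 promoter after removal of an FRT cassette by FLP recombinase, driven by the dpy-7 promoter in hypodermis and by the nhx-2 promoter in intestine. Each library was made from 400 ng DNA of 4000 pooled L4 larvae grown for 48 h at 20 °C on dam- E. coli, so the methylated sites come from the FLP-expressing tissue while all other cells contribute unmarked DNA. The study calls its replicates biological and independent. The p-values rest on the spread between them, after the fit draws the spread of each gene or bin towards that of all tested features.

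Heterochronic genes set the order of larval cell fates, which is best known in the hypodermis and its seam cells. Early factors (LIN-14, LIN-28, HBL-1, LIN-41) hold cells in larval programmes until the microRNAs lin-4 and let-7 with its relatives turn them off, and LIN-29 then drives the switch to the adult epidermis. LIN-42, the worm relative of the clock protein Period, cycles with the molts. L4, the stage collected here, is the last larval stage before that switch.

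The values are log2 ratios of fusion over GFP::Dam for each replicate, with every column centred on its median over the tested genes or bins, so that 0 is the middle of the genome and -1 means a relative methylation by the fusion 2-fold lower than that of the middle gene. "Called" means an adjusted p under 0.05 in limma, fitted across all tested features and adjusted over all of them. Whether the replicates of groups overlap is described for named genes and bins only. It is no test, and the share of all features without overlap is not given here. The tables hold no read counts, so the depth behind each value is unknown. The study does list the reads at GATC sites of each library. Among the 24 libraries these were fewest in the second and then the first Dam::BAF-1 replicate in intestine. The first Dam::BAF-1 replicate in intestine stood apart, with 18% of tested genes at the value a gene without reads takes (0.575% to 7.23% in the other columns) and an interquartile range of 2.07 against 4.67 in the third replicate. None of the 6 genes was at that value in any column. In the second Dam::BAF-1 replicate in intestine the value without reads was 3.0 after centring, so that a gene without reads looks high there. It was -2.17 to 0 in the other columns. Genes that mark the tissues (14 of 15 listed were found for each) showed hypodermis minus intestine medians of -1.16 and -2.03 for hypodermal markers and 1.05 and 1.59 for intestinal markers (the first value is for Dam::BAF-1, the second for the mutant protein). Of the hypodermal markers 4 and 5 were called lower in hypodermis, and of the intestinal markers 1 and 3 were called higher there, where 5.56% and 5.03% of all tested genes were called lower and 2.62% and 2.29% higher.

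The following 300-base stretches, written 5′ to 3′ along the strand of the gene from the RefSeq copy of WBcel235 (the ce11 assembly used by the authors), show the kind of DNA read by the assay, with each GATC, the letters Dam methylates, in capitals. The first 3 come from the bin with the lowest mean ratio of lin-14, lin-42 and hbl-1, and the last from the lin-29 bin with the largest difference between tissues. The lin-14, lin-42 and lin-29 stretches hold no coding base, and 239 bases of the hbl-1 stretch are coding. Each was placed where GATC is densest in its bin, and over the genome 50.1% of 334246 consecutive windows of 300 bases and 97.2% of 2 kb bins hold the motif, which reads the same on both strands.
lin-14, chrX:11481651-11481950, plus strand: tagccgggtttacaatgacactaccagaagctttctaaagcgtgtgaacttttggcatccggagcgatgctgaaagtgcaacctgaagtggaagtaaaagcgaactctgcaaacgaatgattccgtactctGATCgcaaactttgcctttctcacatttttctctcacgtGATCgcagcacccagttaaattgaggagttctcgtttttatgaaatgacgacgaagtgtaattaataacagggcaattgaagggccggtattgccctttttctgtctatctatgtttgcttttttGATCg
lin-42, chrII:1246421-1246720, minus strand: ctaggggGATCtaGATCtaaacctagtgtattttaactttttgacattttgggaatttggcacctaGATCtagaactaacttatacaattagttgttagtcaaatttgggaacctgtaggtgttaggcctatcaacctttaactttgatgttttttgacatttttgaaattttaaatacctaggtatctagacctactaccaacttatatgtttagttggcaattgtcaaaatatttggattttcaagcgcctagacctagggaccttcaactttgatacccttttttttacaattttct
hbl-1, chrX:5826001-5826300, plus strand: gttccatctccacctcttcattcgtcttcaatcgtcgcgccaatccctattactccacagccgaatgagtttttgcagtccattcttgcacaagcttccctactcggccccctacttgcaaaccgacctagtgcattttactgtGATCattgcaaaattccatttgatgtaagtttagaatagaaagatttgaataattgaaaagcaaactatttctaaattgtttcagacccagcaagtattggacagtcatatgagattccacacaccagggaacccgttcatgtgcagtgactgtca
lin-29, chrII:11930481-11930780, minus strand: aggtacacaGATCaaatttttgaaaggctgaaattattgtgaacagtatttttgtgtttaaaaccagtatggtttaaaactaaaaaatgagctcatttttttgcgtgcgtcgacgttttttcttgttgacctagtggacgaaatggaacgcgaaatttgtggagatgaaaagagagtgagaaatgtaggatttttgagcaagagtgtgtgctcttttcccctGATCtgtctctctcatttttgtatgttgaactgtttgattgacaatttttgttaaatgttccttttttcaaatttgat

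Across the 4 fusion groups, 5 of the 6 genes had low ratios in both tissues and with both proteins, and lin-29 stood above the others. Called below 0 were 5 of 6 genes with Dam::BAF-1 in hypodermis, 6 with Dam::BAF-1(G12T) in hypodermis, 5 with Dam::BAF-1 in intestine and 4 with Dam::BAF-1(G12T) in intestine, and none was called above 0. Among all tested genes 24%, 26.3%, 22.4% and 19.2% were called below 0 in these groups, and 20.5%, 24.6%, 25.9% and 21.9% above. The median of the 6 genes was -2.70, -3.0, -2.85 and -2.47 in the same order, beside medians over all tested genes between -0.03 and 0.08. Over the tested protein-coding genes, to which the 6 belong, the medians were 0.06, -0.04, -0.63 and -0.42. The gene that missed the call with Dam::BAF-1 was lin-29 in both tissues, and with Dam::BAF-1(G12T) in intestine lin-29 and hbl-1 missed it. lin-28 and lin-41 lie in the centre of chromosome I, and the study found both proteins mainly on autosome arms. Of protein-coding genes on their chromosome, 2.57% to 9.56% lay lower than lin-28 and 3.47% to 11.8% lower than lin-41 over the 4 groups. On X, 0.701% to 7.51% lay lower than lin-14 and 2.49% to 24.6% lower than hbl-1. The part of position in the low ratios was not tested. Without the filter on tested genes only 1 gene was called in hypodermis with Dam::BAF-1(G12T) and 0 in intestine, a setting in which the calls over all genes in the first of these groups dropped from 50.8% to 1.8%. In intestine, leaving out the second Dam::BAF-1 replicate left 0 of the 6 called and leaving out the third left 1. Of all 36850 tested genes, 8263 were called below 0 with all replicates, 0 without the second and 1814 without the third. Leaving out the third Dam::BAF-1(G12T) replicate left 0 of the 6, while the calls below 0 over all 33367 genes went from 6393 to 2281.

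**Figure D1:**
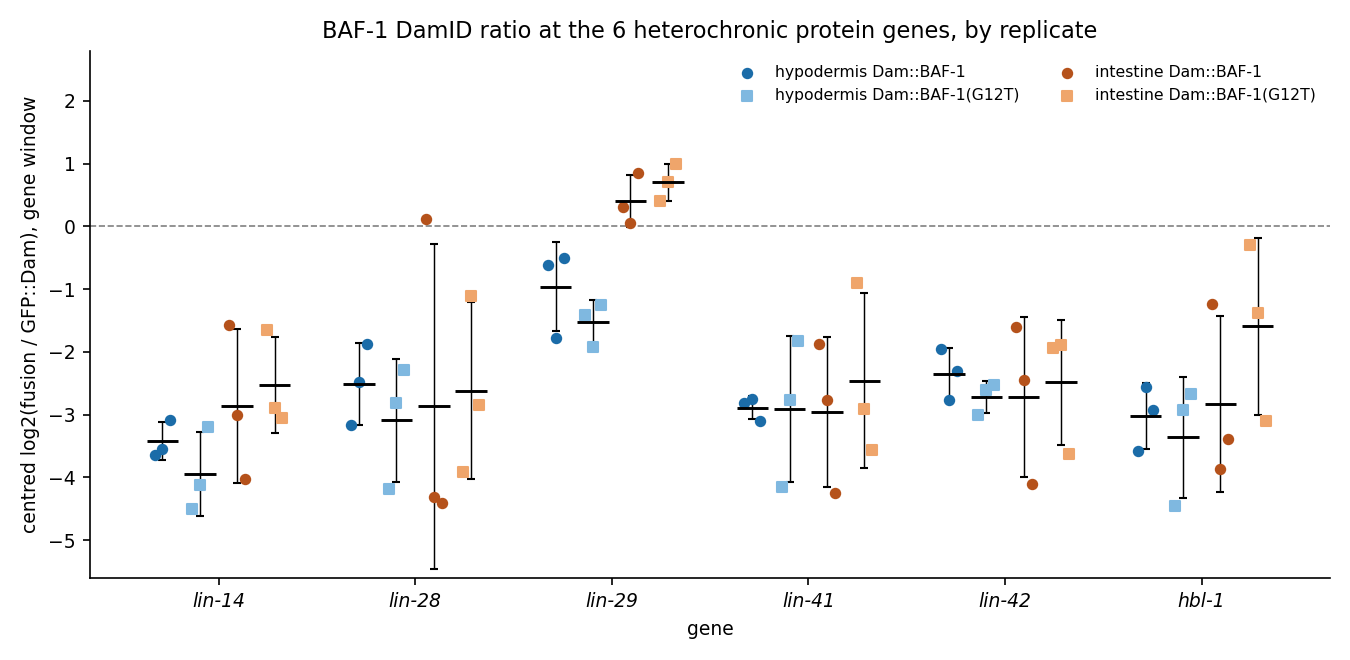
Centred log2 ratio of fusion over GFP::Dam (y axis) for the 6 genes (x axis), 1 point per replicate, with the mean and SD of 3 replicates in each fusion group. Only lin-29 has intestine points that all lie above 0 (0.06 to 1.00), while the hypodermis points of all 6 genes lie below 0.

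lin-14 (WBGene00003003, chrX:11465560-11485871, plus strand, 20.3 kb) encodes the nuclear factor of first-stage fates and the classical target of the lin-4 microRNA. With Dam::BAF-1 in hypodermis its replicates read -3.65, -3.54 and -3.08, a mean of -3.42 ± 0.30 (SD, n = 3), or 10.7-fold below the middle gene (limma, adjusted p = 0.0013). The mutant protein gave -4.50, -4.12 and -3.20 (mean -3.94 ± 0.67, 15.4-fold below, adjusted p = 0.000829). These are the lowest means of the 6 genes in that tissue, and for the mutant protein only 0.356% of 18824 protein-coding genes lay lower. In intestine the replicates spread more, at -1.57, -3.0 and -4.02 with Dam::BAF-1 (mean -2.86 ± 1.23, adjusted p = 0.00798) and at -1.65, -2.89 and -3.05 with Dam::BAF-1(G12T) (mean -2.53 ± 0.77, adjusted p = 0.0117). All 12 columns were below 0, and with Dam::BAF-1(G12T) the hypodermis replicates all lay below the intestine replicates. That tissue difference was not called (limma, adjusted p = 0.247). The 8 small RNA genes in its window mostly followed it, but in intestine T25C12.10, T25C12.11, T25C12.5 and T25C12.6 were not called in 1 or both groups where lin-14 was (-1.92 to -1.46).

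lin-28 (WBGene00003014, chrI:8407630-8410804, minus strand, 3.17 kb) encodes an RNA-binding protein that keeps let-7 from maturing and holds second-stage fates. In hypodermis it read -3.17, -2.49 and -1.88 with Dam::BAF-1 (mean -2.51 ± 0.65, adjusted p = 0.0041) and -4.18, -2.81 and -2.28 with Dam::BAF-1(G12T) (mean -3.09 ± 0.98, adjusted p = 0.00123). In intestine with Dam::BAF-1 it read 0.13, -4.31 and -4.41 (mean -2.87 ± 2.59, adjusted p = 0.0202), the widest spread of any gene and group here. The fit drew this spread in, to an SE of 0.86, beside 0.66 for lin-14 with an SD of 1.23. The lin-28 value above 0 is from the replicate with the narrow range described above. The intestine values of the mutant protein were -3.91, -1.10 and -2.84 (mean -2.62 ± 1.42, adjusted p = 0.0153), so that the tissues overlapped with both proteins. The gene F02E9.1, whose window overlaps that of lin-28, was not called with Dam::BAF-1(G12T) in either tissue (-0.52 and -1.23), while lin-28 was.

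hbl-1 (WBGene00001824, chrX:5822142-5827755, plus strand, 5.61 kb), the worm relative of the fly zinc-finger factor Hunchback, times the passage from second- to third-stage fates and is a target of let-7 family microRNAs. Its hypodermis replicates read -3.58, -2.55 and -2.93 with Dam::BAF-1 (mean -3.02 ± 0.52, adjusted p = 0.00177) and -4.46, -2.93 and -2.68 with Dam::BAF-1(G12T) (mean -3.36 ± 0.96, adjusted p = 0.000955). Intestine replicates read -1.23, -3.87 and -3.38 with Dam::BAF-1 (mean -2.83 ± 1.4, adjusted p = 0.00921). The lowest group mean of the ratio for this gene was thus in hypodermis. The mutant protein in intestine gave -0.29, -1.38 and -3.10 (mean -1.59 ± 1.42), which was not called (adjusted p = 0.0854), although without the first replicate the mean was -2.24 with an adjusted p of 0.0474.

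lin-41 (WBGene00003026, chrI:9334800-9342496, minus strand, 7.70 kb) encodes an RNA-binding protein that is a main target of let-7 and represses lin-29. With Dam::BAF-1 in hypodermis its replicates were the tightest of the 6 genes, at -2.82, -2.75 and -3.10 (mean -2.89 ± 0.18, adjusted p = 0.00191). For the mutant protein they were -4.15, -2.77 and -1.83 (mean -2.91 ± 1.16, adjusted p = 0.00184), so the means were almost the same and the spread was not. Intestine replicates were -1.87, -2.76 and -4.24 with Dam::BAF-1 (mean -2.96 ± 1.2, adjusted p = 0.00734) and -0.89, -2.91 and -3.56 with Dam::BAF-1(G12T) (mean -2.46 ± 1.39, adjusted p = 0.0189). The tissues overlapped with both proteins.

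lin-42 (WBGene00018572, chrII:1233236-1252359, minus strand, 19.1 kb) had a low ratio although it lies in the left arm of chromosome II, where most genes were high. Its hypodermis replicates read -1.96, -2.77 and -2.31 with Dam::BAF-1 (mean -2.35 ± 0.41, adjusted p = 0.00512) and -3.01, -2.61 and -2.52 with Dam::BAF-1(G12T) (mean -2.72 ± 0.26, adjusted p = 0.00122). Its intestine replicates read -1.60, -2.45 and -4.11 with Dam::BAF-1 (mean -2.72 ± 1.28, adjusted p = 0.00959) and -1.93, -1.88 and -3.63 with Dam::BAF-1(G12T) (mean -2.48 ± 0.99, adjusted p = 0.0141). By the arm borders given in the methods of the study, the median protein-coding gene of that arm lay between 1.25 and 1.62 in the 4 groups, and only 0.773%, 0.373%, 1.93% and 2.41% of the 1035 to 1088 genes there lay lower than lin-42. Of the 5 ncRNA genes within its window, F47F6.12 was called in no group (0.30 and -0.01 in hypodermis, -1.05 and -1.33 in intestine). F47F6.11 was called in none of the 3 groups in which it was tested, and F47F6.13 and F47F6.15 missed it with Dam::BAF-1 in intestine (-2.15 each).

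lin-29 (WBGene00003015, chrII:11917642-11935343, minus strand, 17.7 kb) encodes the zinc-finger factor of the larval-to-adult switch in the epidermis and lies in the right arm of chromosome II, 40.5 kb past the border to the centre. In hypodermis it read -0.61, -1.78 and -0.50 with Dam::BAF-1 (mean -0.96 ± 0.71, adjusted p = 0.18) and -1.41, -1.92 and -1.25 with Dam::BAF-1(G12T) (mean -1.52 ± 0.35, 2.88-fold below the middle gene, adjusted p = 0.0161). In intestine it read 0.30, 0.06 and 0.86 with Dam::BAF-1 (mean 0.41 ± 0.41, adjusted p = 0.58) and 0.41, 0.70 and 1.00 with Dam::BAF-1(G12T) (mean 0.70 ± 0.30, adjusted p = 0.352). All 6 hypodermis columns lay below 0 and all 6 intestine columns above it, with no overlap between tissues for either protein. The tissue difference was not called with either protein (limma, adjusted p = 0.161 and 0.0637). The single call below 0, with Dam::BAF-1(G12T) in hypodermis, was lost without the second replicate (adjusted p = 0.129). Among protein-coding genes of the same arm, 9.60% and 5.95% lay lower in hypodermis but 49.1% and 48.0% in intestine.

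lin-29 was the highest of the 6 genes in 12 of 12 columns, and its replicates did not overlap those of the gene next in the order of means in any group. In intestine with Dam::BAF-1 they did overlap those of lin-28, whose first replicate (0.13) lay above the lowest of lin-29 (0.06). In hypodermis the order from the lowest mean was lin-14 and hbl-1, then lin-28 and lin-41 (in exchanged places with the 2 proteins), then lin-42 and lin-29. In intestine it began with lin-41, lin-28 and lin-14 for Dam::BAF-1 and with lin-28, lin-14 and lin-42 for Dam::BAF-1(G12T). Apart from lin-29, every gene overlapped its neighbour in the order in all 4 groups, so these places are not resolved at 3 replicates.

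Along the genes, most tested bins of 5 genes had means below 0, and the bins of lin-29 were mixed. Among these 5 genes the share called below 0 was smallest in lin-28 and hbl-1, at 1 of 3 bins each with Dam::BAF-1(G12T) in intestine. In lin-42 it was 4 of 7 tested bins, out of 11, with Dam::BAF-1 in intestine. Of the 43 bins, 36 were tested in all 4 groups. The 7 untested in some group, 4 of them in all, held a median of 2 GATC sites against 5 in the others. Without lin-29, bins called below 0 were 27 of 28 with Dam::BAF-1 and 25 of 29 with Dam::BAF-1(G12T) in hypodermis, and 23 of 28 and 22 of 30 in intestine, and none was called above. With lin-29 the counts below were 27 of 37, 27 of 38, 24 of 36 and 23 of 39, and above 0, 0, 1 and 2. Among all tested bins 23%, 25.1%, 22.9% and 18% were called below 0 and 19.7%, 24.4%, 26.3% and 21.2% above. In intestine the count below with Dam::BAF-1 was 14 without the second replicate and 3 without the third, and with Dam::BAF-1(G12T) 6 without the third. Over all bins, calls below 0 with Dam::BAF-1 went from 9662 to 3499 and 1811 in the same fits. With Dam::BAF-1(G12T) they went from 7202 to 2521.

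Among the bins tested in all 4 groups, the lowest bin by its mean over the 12 columns was in lin-41 chrI:9342001-9344000 with the 5′ UTR (mean -3.40, SD 1.07). It was in lin-28 chrI:8408001-8410000 over most of the gene (-2.79, SD 1.21), and in lin-14 chrX:11480001-11482000 (-3.40, SD 1.05). The lin-14 bin overlaps a coding exon and the 5′ UTR of a shorter transcript, and holds 9 GATC sites and the stretch printed above. The lowest lin-42 bin, chrII:1246001-1248000, holds no exon (-3.03, SD 0.84), and the lowest hbl-1 bin, chrX:5826001-5828000, overlaps a coding exon and the 3′ UTR (-2.86, SD 1.07). All 12 columns were below 0 in each of these bins.

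Among the bins tested in all 4 groups, the highest lay at the ends of 3 genes. They were chrX:11484001-11486000 at the 3′ end of lin-14 (mean over 12 columns -1.78, SD 1.13), chrI:8406001-8408000 at the 3′ UTR of lin-28 (-1.27, SD 1.59) and chrII:1252001-1254000 at the 5′ end of lin-42 (-0.29, SD 1.67). An untested bin inside lin-14, chrX:11468001-11470000, had a higher mean than the lin-14 bin named here (-0.87). The lin-42 bin read 2.07, -0.35 and 0.55 in hypodermis with Dam::BAF-1 and -1.22, -0.82 and -1.32 in intestine, without a call in any group. In lin-41 and hbl-1 the highest bins were still low, with -2.28 (SD 1.74) at chrI:9336001-9338000 and -1.99 (SD 1.03) at chrX:5824001-5826000. The highest lin-29 bin, chrII:11922001-11924000, had a mean of 0.51 (SD 1.74) and holds no exon. With Dam::BAF-1(G12T) in intestine it read 4.29, 0.63 and 1.55 and was called above 0 (adjusted p = 0.0428). Without the first replicate its mean was 1.09 and the call was lost (adjusted p = 0.26), as it was without the third (adjusted p = 0.0626).

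**Figure D2:**
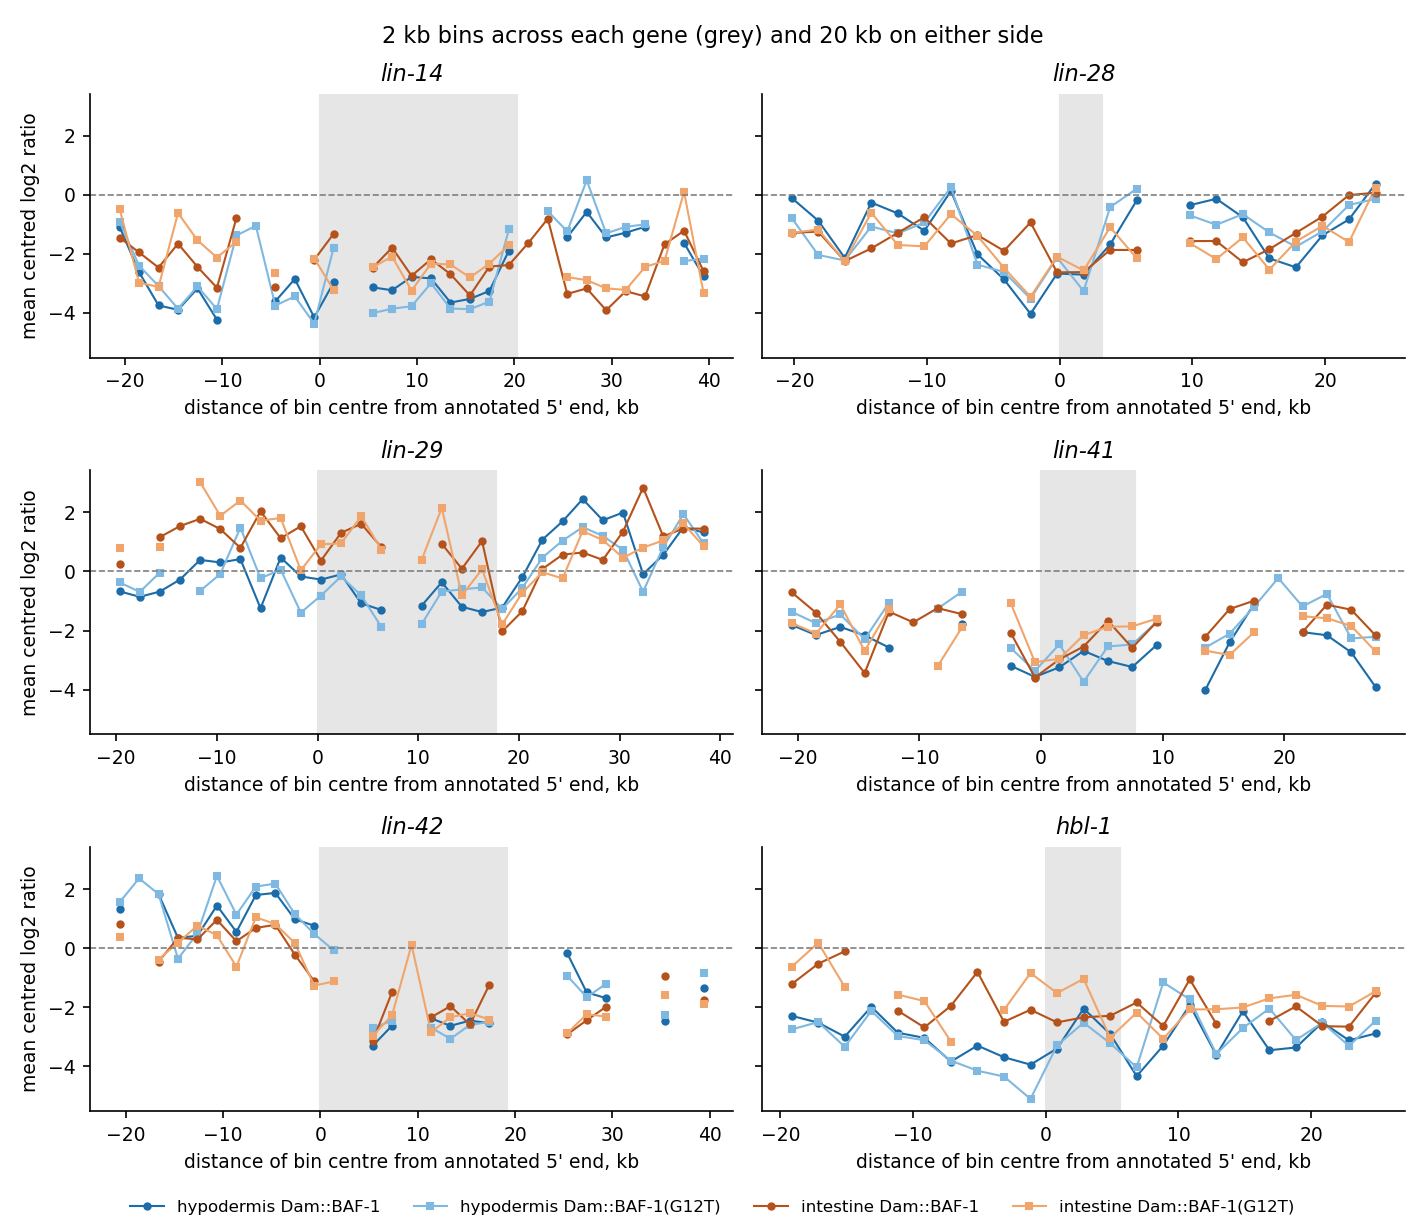
Mean centred log2 ratio of 3 replicates (y axis) in 2 kb bins against the distance of the bin centre from the annotated 5′ end in kb (x axis), over each gene (grey) and 20 kb on either side, for the 4 fusion groups. Untested bins are left out. The lines of lin-42 step down inside the gene, from upstream means of 1.17 and 1.49 in hypodermis to gene means of -2.17 and -1.95.

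The surroundings of the genes, read as the mean of the tested bins within 20 kb, ranged from a wide low region to a step from high to low. hbl-1 lay inside a wide low region, since in hypodermis 10 of 10 upstream bins were called below 0 with both proteins (means -3.05 ± 0.72 and -3.42 ± 0.33, SD, n = 3) and 10 and 9 of 10 downstream bins. Around lin-41, no flanking bin was called above 0 and the means lay between -2.61 and -1.56. The lin-28 bins averaged -2.35 ± 0.48 and -1.93 ± 0.80 in hypodermis, against -1.4 ± 0.62 and -1.66 ± 0.39 upstream and -0.88 ± 0.20 and -0.77 ± 0.34 downstream. The bin just upstream of lin-28 was lower than any bin of the gene in hypodermis (-4.03 and -3.51). Beside lin-14 the hypodermis means were -3.15 ± 0.75 and -2.68 ± 0.90 upstream but -1.46 ± 1.08 and -1.14 ± 0.48 downstream. In intestine they were -2.13 ± 1.04 and -1.89 ± 0.66 upstream and -2.50 ± 1.12 and -2.49 ± 0.80 downstream.

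lin-42 had the largest step. In hypodermis its bins averaged -2.17 ± 0.47 for Dam::BAF-1 and -1.95 ± 0.08 for the mutant protein. The 20 kb upstream of its 5′ end averaged 1.17 ± 0.48 and 1.49 ± 0.10. There 3 of 9 and 6 of 10 bins were called above 0, against 19.7% and 24.4% of all tested bins. The step lay inside the gene. In hypodermis the bin with the 5′ end still read 0.76 and 0.48, and the bin centred at 5.36 kb read -3.31 and -2.70. Between them no bin was tested with Dam::BAF-1. Dam::BAF-1(G12T) had only the bin at 1.36 kb (-0.07), so the place of the step is not resolved. In intestine the same upstream bins averaged 0.38 ± 0.20 and 0.31 ± 0.37 with none called. The downstream side stayed low in all groups, from -2.18 to -1.38.

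The flanks of lin-29 differed between its ends. Downstream the means were above 0 in all 4 groups (1.2, 0.74, 0.86 and 0.63), with the 3′-end bin chrII:11916001-11918000 as a dip between gene and flank. That bin was called below 0 in intestine with Dam::BAF-1 (-2.19, -1.47 and -2.42, adjusted p = 0.00821), and the mutant protein gave a call there too (-2.75, -1.37 and -1.26, adjusted p = 0.0429). The first call was lost without the second or the third replicate (adjusted p = 0.0602 and 0.0861), and the second without any 1 replicate (0.170, 0.0585 and 0.125) and without the filter (0.0765). It also holds hmg-12, whose own window was called below 0 in intestine with both proteins (-2.35 and -1.92) where lin-29 was not, so the methylation of the bin cannot be assigned to either gene. Upstream of lin-29 the means were -0.23 ± 0.52 and -0.21 ± 0.39 in hypodermis and 1.29 ± 0.41 and 1.56 ± 0.34 in intestine, the same side of 0 as the gene in each tissue.

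The tissues were compared because the 6 genes are known for their work in the hypodermis. No gene was called different between the tissues. Called below 0, that is lower in hypodermis, were 0 of 6 genes with Dam::BAF-1 against 5.56% of all tested genes, and 0 of 6 with Dam::BAF-1(G12T) against 5.03%, and called above were 0 of 6 against 2.62% and 2.29%. lin-29 had the largest difference with both proteins, -1.73 (SE 0.77, adjusted p = 0.161) and -2.26 (SE 0.69, adjusted p = 0.0637), where the fit centres both tissues on the genes tested in both and so departs from the difference of the means above. With Dam::BAF-1(G12T) hbl-1 followed with -1.80 (SE 0.86, adjusted p = 0.216) and lin-14 with -1.45 (SE 0.74, adjusted p = 0.247), and with Dam::BAF-1 these were -0.56 (SE 0.80) and -0.92 (SE 0.77). lin-28, lin-41 and lin-42 differed by -0.29 to 0.01 with Dam::BAF-1 and by -0.51 to -0.27 with Dam::BAF-1(G12T). The median over all tested genes was -0.22 and -0.13. With the columns centred as deposited the Dam::BAF-1 median was 0.61, the calls over all genes turned from 790 above and 1677 below to 2796 above and 634 below, lin-29 read -0.90, and hbl-1, lin-41 and lin-28 turned above 0 (0.28 for hbl-1 and 0.54 for lin-41) and lin-42 went from 0.01 to 0.85. Over all alternatives the adjusted p of lin-29 lay between 0.133 and 0.573 for Dam::BAF-1 and between 0.0621 and 0.228 for the mutant protein. The medians of the hypodermal markers given above lay on the same side of 0 as lin-29, but not every marker did. Below 0 were 10 of 14 with Dam::BAF-1 and 13 of 14 with the mutant protein, and the highest differences were 2.09 and 0.08. The part of such tissue genes in the difference was not tested.

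Within lin-29, single bins carried the tissue difference past the threshold. With Dam::BAF-1, 1 of 36 bins over the 6 genes was called lower in hypodermis (5.63% of all tested bins were), and with Dam::BAF-1(G12T) 1 of 38 (5.07%), both in lin-29. None was called higher (2.72% and 2.49%). The share among the 6 genes was therefore no larger than in the genome.

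The first of these bins, chrII:11930001-11932000, is centred 4.34 kb from the annotated 5′ end, holds no exon and holds the lin-29 stretch printed above. With Dam::BAF-1 it read -0.82, -1.79 and -0.62 in hypodermis and 1.09, 1.16 and 2.60 in intestine, a fitted difference of -2.81 (SE 0.84, adjusted p = 0.0385). With Dam::BAF-1(G12T) it read -1.97, -0.44 and -0.04 in hypodermis and 2.91, 1.16 and 1.53 in intestine, a difference of -2.69 (SE 0.81, adjusted p = 0.0565). Hypodermis and intestine did not overlap with either protein, and the bin was called above 0 in intestine with both (adjusted p = 0.0317 and 0.0387). No bin of the 6 genes was called above 0 in intestine without the second or the third Dam::BAF-1 replicate, or without the first or the third of the mutant protein.

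The second, chrII:11928001-11930000, is the next bin towards the 3′ end and also holds no exon. There Dam::BAF-1(G12T) gave -1.41, -2.66 and -1.56 in hypodermis and 0.14, 0.75 and 1.33 in intestine, a difference of -2.63 (SE 0.75, adjusted p = 0.0474). With Dam::BAF-1 it read -0.59, -2.44 and -0.88 against 0.45, 0.74 and 1.26, a difference of -2.24 (SE 0.84, adjusted p = 0.0947). The tissues again did not overlap. Both calls were lost with the deposited centring and without the filter on tested bins. Each was lost in 5 of 6 fits that left out a replicate, and the second also with a replicate block (adjusted p = 0.0823). In the fit without the second Dam::BAF-1(G12T) intestine replicate the first of these bins and chrII:11922001-11924000 were called instead.

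**Figure D3:**
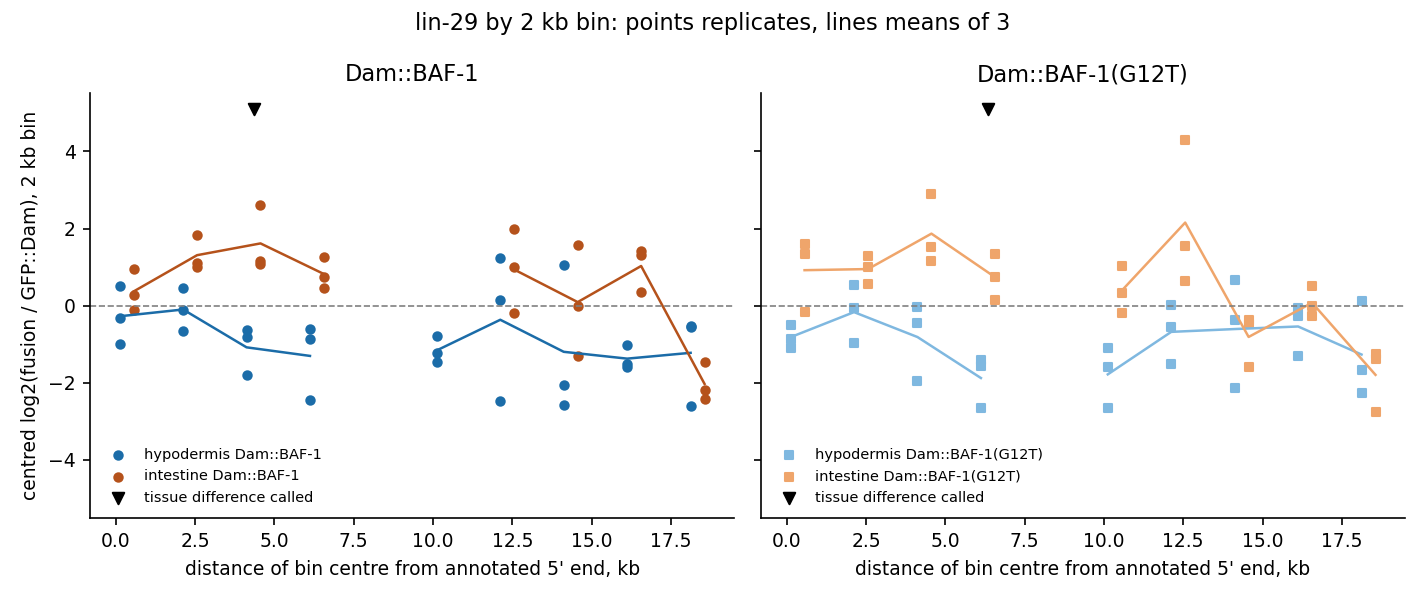
Centred log2 ratio (y axis) in each tested 2 kb bin of lin-29 against the distance of the bin centre from the annotated 5′ end in kb (x axis), with replicates as points and means of 3 as lines, Dam::BAF-1 on the left and Dam::BAF-1(G12T) on the right. Triangles mark the bins called different between tissues, at 4.34 kb and 6.34 kb, and at the 3′ end the means of both tissues lie below 0.

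No bin of the other 5 genes was called different between the tissues. At the 5′ end of lin-14 the tissues did not overlap with either protein, and chrX:11464001-11466000 averaged -4.15 and -4.36 in hypodermis and -2.20 and -2.16 in intestine, differences of -2.06 (SE 0.83, adjusted p = 0.119) and -2.22 (SE 0.77, adjusted p = 0.0916). The bins of lin-42 had median differences of -0.26 and 0.03, and those of lin-28 -0.15 and -0.04.

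The comparison of the proteins asks whether G12T, in its own mutant genotype, changed the ratio at these genes. None was called in either tissue, as was the case for 0% of all genes tested in hypodermis and 0% in intestine (limma, with 585 and 994 genes at an unadjusted p under 0.05). The differences, G12T minus wild type, ran from -0.48 for lin-28 to 0.08 for lin-41 in hypodermis and from 0.02 for lin-42 to 1.02 for hbl-1 in intestine. The largest, hbl-1 in intestine, had an SE of 0.95 and an adjusted p of 1.00. Of the bins over the 6 genes none was called (0% of all bins in hypodermis and 0% in intestine, with 724 and 1112 bins at an unadjusted p under 0.05), and no bin of the 6 genes passed the unadjusted threshold. The SEs were 0.61 to 0.72 in hypodermis and 0.73 to 1.18 in intestine. Between columns of the same replicate number, which pair the samples within a tissue, some differences had 1 sign in all 3 pairs. The share of all genes with such a pattern is not given here, so the pattern is only described. In hypodermis these were lin-14 (-0.86, -0.58 and -0.12), lin-28 (-1.01, -0.33 and -0.40) and lin-29 (-0.80, -0.14 and -0.75). In intestine they were hbl-1 (0.94, 2.49 and 0.28) and lin-29 (0.11, 0.64 and 0.15). The fit with the replicate block also called 0 of the 6 genes in either tissue.

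Whether the protein difference itself differed between tissues was fitted over all 4 groups. No gene was called for this interaction, among the 6 or over all genes (0%, with 1091 genes at an unadjusted p under 0.05). Among the 6 genes it ran from -1.18 for hbl-1 (SE 1.15) to -0.14 for lin-41 (SE 1.13), with adjusted p = 1.00 throughout.

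Around the 6 genes, 39 other genes of the timing pathway fell into 5 roles, and most had low ratios too. Of those tested, 24 of 38 were called below 0 with Dam::BAF-1 and 27 of 38 with Dam::BAF-1(G12T) in hypodermis, and 23 of 39 and 15 of 38 in intestine, while 1, 1, 2 and 1 were called above. Over all tested genes the shares were the 24%, 26.3%, 22.4% and 19.2% below and 20.5%, 24.6%, 25.9% and 21.9% above given earlier. Their median ratio was -2.52, -2.57, -2.35 and -1.71 in these groups.

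The 6 microRNA genes (lin-4 and let-7 with its family, and the lin-4 relative mir-237) were all called below 0 in hypodermis with both proteins, with medians of -3.55 and -3.58. In intestine 4 of 6 and 2 of 5 were, with medians of -2.37 and -1.76. The lowest by its mean over the 12 columns was mir-241 (-3.72) and the highest mir-84 (-1.66), both of the let-7 family.

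Genes of steroid signalling and molting, which link the timing pathway to growth, were called below 0 in 9 and 10 of 10 cases in hypodermis and in 6 and 5 of 10 in intestine, with medians of -3.21, -3.65, -2.52 and -2.0. The lowest was kin-20, a casein kinase relative of fly Doubletime (-3.31 over the 12 columns), and the highest nhr-85, a nuclear receptor (0.57). Of the downstream genes and cofactors 4, 4, 4 and 3 of 5 were called below 0, from puf-9, a Pumilio relative (-2.64), to sea-2, a zinc-finger gene (-0.70). Genes of the microRNA machinery gave 4, 6, 7 and 4 of 10, from ain-1, a GW182-type Argonaute partner (-2.95), to xrn-2, an exonuclease (0.53).

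Of the seam and cuticle genes 1, 1, 2 and 1 were called below 0, of 7 tested in hypodermis and 8 in intestine, which is near the shares over all genes, and they had medians of 0.72, 0.23, 0.05 and 0.75. The lowest was apl-1, the amyloid precursor relative (-2.45). The highest was col-19 (1.33), an adult cuticle collagen, which read 3.64, 2.43 and 1.53 in hypodermis with Dam::BAF-1 and 2.87, 0.88 and 0.49 with Dam::BAF-1(G12T), and was called above 0 with both.

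Between the tissues, 6 of 38 of these genes were called lower in hypodermis with Dam::BAF-1 and 5 of 37 with Dam::BAF-1(G12T), and none higher, beside the 5.56% and 5.03% of all genes given above. They were 2 microRNA genes and 4 genes of steroid signalling and molting. nhr-85 read -0.90, -1.92 and -1.14 in hypodermis and 2.10, 1.69 and 3.20 in intestine with Dam::BAF-1, a difference of -4.01 (SE 0.79, adjusted p = 0.011). With Dam::BAF-1(G12T) it read -1.92, -1.32 and -1.65 against 2.94, 2.20 and 3.53, a difference of -4.56 (SE 0.71, adjusted p = 0.00721). Its ratios in intestine were called above 0 with both proteins, and the tissues did not overlap.

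The other 3 receptor and steroid genes went the same way. nhr-25, a nuclear receptor of molting and epidermal development, differed by -3.27 (SE 0.75, adjusted p = 0.019) and -4.40 (SE 0.76, adjusted p = 0.00827). daf-9, the cytochrome P450 that makes the DAF-12 ligand, differed by -2.67 (SE 0.75, adjusted p = 0.0393) and -4.21 (SE 0.76, adjusted p = 0.00943). nhr-23, the receptor that drives the molting cycle, differed by -2.54 (SE 0.74, adjusted p = 0.044, or 0.0527 with a replicate block) and -3.43 (SE 0.76, adjusted p = 0.0206). All their hypodermis replicates lay between -4.50 and -2.45 and all their intestine replicates between -1.39 and 1.26. nhr-23 and nhr-25 are also on the list of hypodermal markers.

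mir-84 read -4.46, -3.47 and -2.28 in hypodermis and 0.00, -0.22 and 0.43 in intestine with Dam::BAF-1, where the 0.00 is the value a gene without reads takes in that column. It differed by -3.84 (SE 0.80, adjusted p = 0.0132) and -4.04 (SE 0.86, adjusted p = 0.0176), and mir-237 by -5.27 with Dam::BAF-1 (SE 1.00, adjusted p = 0.00932). The intestine values of mir-237 were 0.00, 3.0 and -1.74, of which the first 2 are again such values, and with Dam::BAF-1(G12T) it was not tested in intestine, so this difference rests on 1 replicate with reads. None of these 11 calls held in every fit: without the filter on tested genes mir-84, daf-9, nhr-23 and nhr-25 lost the call with both proteins, with the deposited centring daf-9, nhr-23 and nhr-25 lost it for Dam::BAF-1 (adjusted p = 0.171, 0.201 and 0.0623), and leaving out single replicates lost 31 of 66 calls. Over all genes, 0 were called between tissues without the third Dam::BAF-1 intestine replicate or without the first Dam::BAF-1(G12T) hypodermis replicate. The highest adjusted p over the alternatives was 0.0877 and 0.0564 for nhr-85 and 0.057 for mir-237. No pathway gene was called between the proteins or for the interaction.

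**Figure D4:**
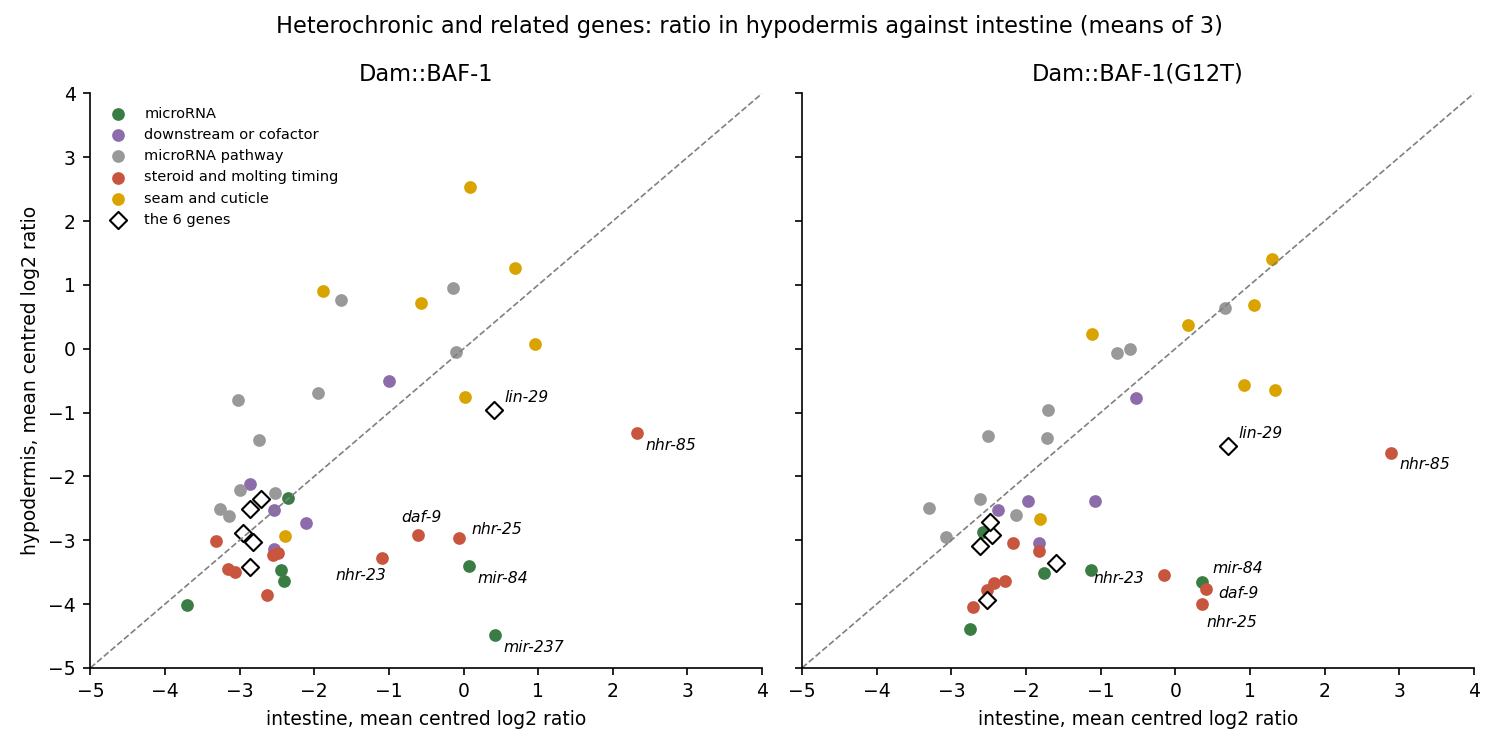
Mean centred log2 ratio of 3 replicates in hypodermis (y axis) against intestine (x axis) for the 6 genes (diamonds) and the other pathway genes tested in both tissues (dots coloured by role), Dam::BAF-1 on the left and Dam::BAF-1(G12T) on the right. The dashed line marks equal ratios, the genes called lower in hypodermis carry their names, and lin-29 lies on the same side with means of -0.96 against 0.41 and -1.52 against 0.70.

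Over the 12 columns, which are 3 replicates of each of 4 groups, the profiles of the 6 genes were alike to very different degrees. The highest Pearson r between members was 0.82 for lin-14 with hbl-1, followed by 0.77 for lin-14 with lin-41, and lin-29 had r = -0.03 with lin-41, -0.10 with lin-42 and 0.05 with lin-28. Among 18013 protein-coding genes tested in all groups and at least 10 kb away, the 2 with the highest r to each gene were tlk-1 (0.97) and hlh-11 (0.96) for lin-14, K10D2.8 (0.95) and C48B4.3 (0.92) for lin-28, and F25D1.5 (0.97) and cima-1 (0.95) for hbl-1. They were F10B5.2 (0.97) and rpl-10 (0.96), which are neighbours of each other, for lin-41, and pkc-1 and akap-1 (0.94 each) for lin-42. For lin-29 they were gmeb-2 and D1086.8 (0.97 each). A high r does not mean a like level: gmeb-2 had means of -0.23 and -0.76 in hypodermis and 1.84 and 1.90 in intestine, above lin-29 in each group. These values describe the columns and carry no test.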

How the data were processed

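DamID libraries were sequenced for 8 groups of 3 replicates. The authors kept adapter reads at GATC sites of the ce11 genome, counted them over genes extended by 500 bp and over 2 kb bins, added a pseudocount, and deposited log2 ratios of fusion over GFP::Dam per replicate, with the mean over all features subtracted. The adjusted p-values in the deposited tables come from DESeq2, run by the authors on the reads (aligner and DESeq2 version: not given in the sources used here). Only their presence was used, as the filter for tested features. The authors' mean ratios and p-values were not used otherwise.

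Each column was centred on its median over tested features, and limma 3.58.1 in R 4.3.3 (robust empirical Bayes, Benjamini-Hochberg over all tested features, two-sided, FDR 0.05) was fitted to each group against 0 and to differences between groups over features tested in both. The fits had been planned for counts or ratios, and ratios were found. The code was tested on simulated data. Figures used Python 3.11.15 and matplotlib 3.10.9. Gene positions come from the Ensembl annotation of WBcel235, and the deposited gene windows start up to 172 bp from that annotation. Sequences and the names of microRNA genes come from RefSeq WBcel235. The 6 genes, the lists and the tests were chosen with earlier results of these data known. Named were the 6 genes, pathway genes called between groups or extreme in their role by the mean over the 12 columns, overlapping genes called differently, the bins with the highest and lowest mean, and the 2 genes most like each of the 6.

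Within a tissue, replicate numbers paired the columns of the proteins, since deviations from the group means correlated for each number (r = 0.45, 0.32 and 0.28 in hypodermis, and 0.30, 0.24 and 0.43 in intestine). Alternatives were the deposited centring, no filter, another filter, ordinary empirical Bayes, a replicate block and leaving out each replicate.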

Additional observations from a re-analysis of the deposited data

Results flagged for a closer look

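The difference between the proteins at lin-29 pointed in opposite directions in the tissues. Subtracting the Dam::BAF-1 column from the Dam::BAF-1(G12T) column of the same number gave -0.80, -0.14 and -0.75 in hypodermis and 0.11, 0.64 and 0.15 in intestine, which set it apart because all 3 pairs moved one way in one tissue and the other way in the other. The limma interaction was -0.475 (SE 0.917, adjusted p = 1.00), so the test of the difference did not pass. How many of all genes show such opposite signs is not given here. The cause of the pattern was not tested.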

How the results depend on the processing

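No called result reversed, but uncalled tissue differences with Dam::BAF-1 turned above 0 under the deposited centring for lin-28, lin-41 and hbl-1. Uncalled estimates changed sign in other fits too. With a replicate left out this was so in 40 of 288 fits of the 6 genes and in 63 of 456 fits of their named bins. The protein difference at lin-41 in hypodermis, for instance, ran from -0.47 to 0.71 over these fits. Member genes called below 0 went from 6 to 1 in hypodermis and from 4 to 0 in intestine with Dam::BAF-1(G12T) when no filter was used. Over all genes these calls went from 8885 to 412 and from 6393 to 1073. Leaving out a replicate gave 0 to 5 called genes with Dam::BAF-1 in intestine (5 with all) and 0 to 4 with Dam::BAF-1(G12T). Over all genes the same fits called 0 to 12604 below 0 (8263 with all) and 2281 to 6087 (6393 with all). Member bins below 0 in intestine (24 and 23 with all) ranged from 3 to 27 and from 6 to 21 over these fits, and bins above 0 from 0 to 2 with both proteins. Over all bins the calls below 0 ranged from 1811 to 12769 (9662 with all) and from 2521 to 6956 (7202 with all). The 1 bin above 0 with Dam::BAF-1 in intestine became 0 with the deposited centring. The bins called between tissues (1 with each protein) became 0 with the deposited centring and without the filter for both proteins, and 0 with a replicate block for Dam::BAF-1(G12T). Leaving out a replicate gave 0 to 1 with Dam::BAF-1 and 0 to 2 with Dam::BAF-1(G12T). The cause of these changes was not tested. Ordinary empirical Bayes changed no call of a named gene.

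The replicate block left lin-29 uncalled between tissues (adjusted p = 0.17 and 0.101) and took the call from nhr-23 with Dam::BAF-1 (adjusted p = 0.0527) and from the lin-29 bin at chrII:11928001-11930000 (adjusted p = 0.0823). It changed no other call of the named genes and bins, and none between proteins. Between tissues the replicate numbers did not pair the columns (r from -0.10 to 0.08), and the block moved the genes called with Dam::BAF-1(G12T) from 733 above and 1611 below to 369 and 847. The reads per library that the study lists were not used. The reads behind each gene or bin are unknown, so counting error could not be set apart from the spread between replicates.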
